A study of Mus musculus with 5 samples.

Results

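The 10 genes described here are the transcription factors of epithelial-mesenchymal transition (EMT) Snai1, Snai2, Twist1, Zeb1 and Zeb2, the classical cadherins Cdh1, Cdh2 and Cdh3, the epithelial adhesion molecule Epcam and the intermediate filament Vim. They were taken by symbol, and each has 1 row among the 18384 rows of the count files that are not spike-ins. The cells came from MMTV-PyMT tumor organoids, cultures of mouse mammary tumor cells that express the polyoma virus middle T oncogene from the mammary tumor virus promoter, of a line that carries a CFP tag on the endogenous E-cadherin (Cdh1) gene. All organoids were first grown in basement membrane extract (BME) in medium with FGF2, then embedded for 5 days in Collagen I, where they were labelled as invading, or again in BME, where they were labelled as not invading. They were taken apart with collagenase, Dispase and trypsin, and live single cells were sorted by FACS into 384-well plates. Collagen I was represented by 2 plates (replicates 1 and 3) and BME by 3 plates (replicates 1 to 3), and the remaining Collagen I plate was not analysed here.

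During EMT, epithelial cells loosen their junctions and take on a motile, mesenchymal form. Snail (Snai1), Slug (Snai2), Twist1, Zeb1 and Zeb2 are the factors best known for driving it: the Snail and Zeb proteins are zinc finger repressors that bind E-boxes in the promoter of Cdh1 and of other epithelial genes, and Twist1 is a basic helix-loop-helix factor. Cdh1 encodes E-cadherin, the main adhesion receptor of epithelial adherens junctions, Cdh2 encodes the N-cadherin of mesenchymal and neural cells, and Cdh3 the P-cadherin of basal and myoepithelial cells. In the mammary gland the basal (myoepithelial) layer expresses Krt5, Krt14, P-cadherin, Slug and vimentin as part of its normal identity, so that these genes mark a cell layer as well as EMT.

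Of 1920 wells, 1500 passed the filter (over 500 counts, under 8000 genes, under 10% mitochondrial counts), with 251 and 305 on the Collagen I plates and 307 to 319 on the BME plates. The plates differed in depth: the median kept well held 5106 and 2749 counts on the Collagen I plates and 21739 to 25603 on the BME plates. The spike-ins took 8.18% and 8.07% of the counts in Collagen I and 2.31% to 2.68% in BME. The BME plates (3) were run together on 1 flow cell, and the Collagen I plates on separate ones, so the matrix and the sequencing run cannot be told apart. Wells with at least 5 counts of Krt5, Krt14 and Krt17 together per 10000 were called basal (88 and 138 wells in Collagen I; 96, 114 and 92 in BME), and wells under 2 per 10000 non-basal (133 and 144 in Collagen I; 190, 166 and 181 in BME), with 158 wells in between. The gate is a share of counts, so a shallow well passed it with fewer keratin counts than a deep one. The median basal well held 4124 and 2579 counts in Collagen I and 16930, 22604 and 26524 in BME. The basal classes of the matrices were thus not drawn at like depth. Basal markers outside the gate followed it: Trp63 lay between 63.9 and 201 counts per 1000000 counts (CPM) in basal wells and between 12.97 and 22.5 CPM in non-basal wells, and Col17a1 between 318 and 513 CPM in basal and between 15.3 and 33.9 CPM in non-basal wells. Cd14, a luminal marker, was lower in the basal wells of each plate, and Krt8 was higher in them on 3 of 5 plates. Cycling wells were those with at least 10 counts of 10 mitotic genes such as Mki67 and Top2a per 10000 (41 and 54 wells in Collagen I; 145, 134 and 130 in BME).

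Promoters are shown for Snai1, Epcam and Vim, because these genes differed most plainly between the matrices and because Snail and Zeb proteins act through E-boxes. The sequences run 5′ to 3′ and cover the 250 bases before the RefSeq start site (GRCm38.p6, plus strand), and capitals mark each match to the E-box CAGGTG or its reverse complement CACCTG. They lie at chr2:167537945-167538194 (Snai1), chr17:87635729-87635978 (Epcam) and chr2:13574061-13574310 (Vim), each ending 1 base before the gene, which spans chr2:167538195-167542814 for Snai1, chr17:87635979-87651127 for Epcam and chr2:13574311-13582826 for Vim.
Snai1: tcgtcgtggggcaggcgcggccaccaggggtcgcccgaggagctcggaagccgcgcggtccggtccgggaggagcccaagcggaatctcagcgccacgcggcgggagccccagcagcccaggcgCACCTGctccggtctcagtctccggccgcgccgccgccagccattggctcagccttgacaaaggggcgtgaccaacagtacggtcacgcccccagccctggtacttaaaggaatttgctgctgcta
Epcam: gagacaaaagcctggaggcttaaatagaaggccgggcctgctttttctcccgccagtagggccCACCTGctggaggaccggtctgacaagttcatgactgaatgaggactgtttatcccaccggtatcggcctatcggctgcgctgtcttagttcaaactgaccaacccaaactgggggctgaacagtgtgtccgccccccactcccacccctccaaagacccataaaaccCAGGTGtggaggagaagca
Vim: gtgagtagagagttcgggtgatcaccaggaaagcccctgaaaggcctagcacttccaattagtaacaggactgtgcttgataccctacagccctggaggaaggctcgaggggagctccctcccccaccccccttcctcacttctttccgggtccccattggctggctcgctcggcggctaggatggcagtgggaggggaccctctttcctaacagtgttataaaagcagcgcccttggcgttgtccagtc
The Snai1 window held 1 match, its first base at position -126 from the start site, and the Epcam window held 2, at positions -187 and -19. The Vim window held none, and neither did that of Twist1. Of 32851 promoter windows of the same length, 17.2% held at least 1 match, so a match in a single window is common, and it is a description of the letters and not of binding. The AP-1 motif TGANTCA, which is its own reverse complement and is held by 6.75% of the windows, was found in none of these 4. Zeb2 has 4 windows, of which number 4 held 2 matches to the AP-1 motif, at positions -189 and -132.

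The first comparison asked whether the 10 genes differed between organoids in Collagen I and in BME. Across all wells, 5 of the 9 genes with enough counts to be tested rose in Collagen I (Snai1, Twist1, Cdh3, Epcam and Vim), 1 fell (Cdh1), and Snai2, Cdh2 and Zeb2 did not pass the test. The median log2 fold change of the 9 genes was 0.94, against -0.03 for all genes. By the same test (edgeR's quasi-likelihood test on counts summed per plate, Benjamini-Hochberg adjusted p under 0.05), 31.8% of the 11839 genes tested were called, so that a called gene was common in this comparison.

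Snai1, the Snail repressor, had 132 and 88.7 CPM on the Collagen I plates and 20.9, 23.9 and 21.6 CPM on the BME plates. Both Collagen I plates lay far above the BME plates, which were close to each other. The means were 110 ± 30.3 CPM in Collagen I (SD, n = 2) and 22.1 ± 1.59 CPM in BME (SD, n = 3), a ratio of 4.97, and the log2 fold change was 2.33 (SE 0.18, adjusted p = 6.49e-07). The call stood under all 15 alternatives tried, with adjusted p of at most 5.06e-04. Nothing in the labels says that the plates came from separate cultures, so this and the other p-values measure only the spread between plates, which may be technical. These CPM came from 188 and 91 counts in Collagen I and from 174, 194 and 196 counts in BME. Thinned to 2000 counts, 21.1% and 14.9% of the Collagen I wells and 4.55%, 4.71% and 2.70% of the BME wells held a Snai1 count, and unthinned 37.5% and 22.3% in Collagen I and 31.97%, 29.9% and 30.0% in BME, where the wells were deeper.

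Twist1, the helix-loop-helix EMT factor, was at 28.0 and 25.3 CPM in Collagen I and at 9.50, 8.02 and 10.0 CPM in BME, with no overlap. It rose by 1.54 on the log2 scale (SE 0.25, adjusted p = 4.21e-04) from few counts, 40 and 26 in Collagen I and 79, 65 and 91 in BME. When each well was thinned to 2000 counts its log2 fold change was 0.94 and the call was lost (adjusted p = 0.122).

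Snai2, the Slug repressor that also marks basal mammary cells, did not follow them. It was at 32.2 and 37.0 CPM in Collagen I and at 33.9, 48.5 and 41.4 CPM in BME. These groups overlapped, and its log2 fold change of -0.26 (SE 0.21, adjusted p = 0.385) was within the spread between plates.

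The Zeb factors were hardly detected. Zeb1 had 1 count in all Collagen I wells (2456518 counts in all) and 4 counts in all BME wells (25506689 counts), too few to test. Zeb2 had 2 counts in Collagen I and 58 in BME, a ratio of 0.358 with an exact 95% interval of 0.0424 to 1.35 that covers counting error only, and its log2 fold change of -1.46 (SE 0.87) did not pass the test (adjusted p = 0.222). Of the 58 Zeb2 counts in BME, 18, 18 and 16 on the 3 plates lay in non-basal wells, where its log2 fold change was -2.14 (SE 1.16, adjusted p = 0.185). Among wells over 2000 counts the non-basal difference was called (adjusted p = 0.0499), with at most 1 count in Collagen I.

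Among the cadherins, Cdh1 was lower and Cdh3 higher in Collagen I. Cdh1 (E-cadherin) was at 135 and 128 CPM in Collagen I and at 221, 186 and 184 CPM in BME, with no overlap between the matrices, and fell by 0.58 on the log2 scale (SE 0.15, adjusted p = 0.00936). The call was lost after thinning to 2000 counts (-0.42, adjusted p = 0.105). It was also lost when either Collagen I plate was left out, with the fold change nearly as before (-0.60, adjusted p = 0.0858 without replicate 1, and -0.56, adjusted p = 0.0852 without replicate 3). The files also hold a row for eGFP, with 5 and 2 counts on the Collagen I plates and 30, 22 and 24 on the BME plates. In CPM these were 3.50 and 1.95 in Collagen I and 3.61, 2.71 and 2.64 in BME, which overlapped. Whether the CFP tag on Cdh1 affected how its reads were counted was not tested.

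Cdh3 (P-cadherin) was at 79.7 and 68.2 CPM in Collagen I and at 42.9, 38.9 and 34.4 CPM in BME. The matrices did not overlap, and Cdh3 rose by 0.94 on the log2 scale (SE 0.17, adjusted p = 9.21e-04), also under each alternative. Cdh2 (N-cadherin) was at 98.6 and 77.0 CPM in Collagen I and at 58.8, 76.5 and 63.6 CPM in BME. The lower Collagen I plate and the highest BME plate were nearly level, and the log2 fold change of 0.42 (SE 0.17) did not pass the test (adjusted p = 0.0698). It was called without BME replicate 1 (0.37, adjusted p = 0.0437) and without BME replicate 2 (0.54, adjusted p = 0.0306).

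Epcam, a homophilic adhesion molecule of epithelial cells, and Vim, the filament protein of mesenchymal and basal cells, both rose in Collagen I, Epcam by a ratio of means of 2.03 and Vim by 1.94. Epcam was at 666 and 655 CPM in Collagen I and at 312, 362 and 303 CPM in BME, and Vim at 426 and 383 CPM in Collagen I and at 163, 241 and 222 CPM in BME. Neither gene's ranges overlapped. The log2 fold changes were 1.03 for Epcam (SE 0.14, adjusted p = 8.67e-05) and 0.96 for Vim (SE 0.16, adjusted p = 5.49e-04), and both calls stood under every alternative.

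**Figure D1:**
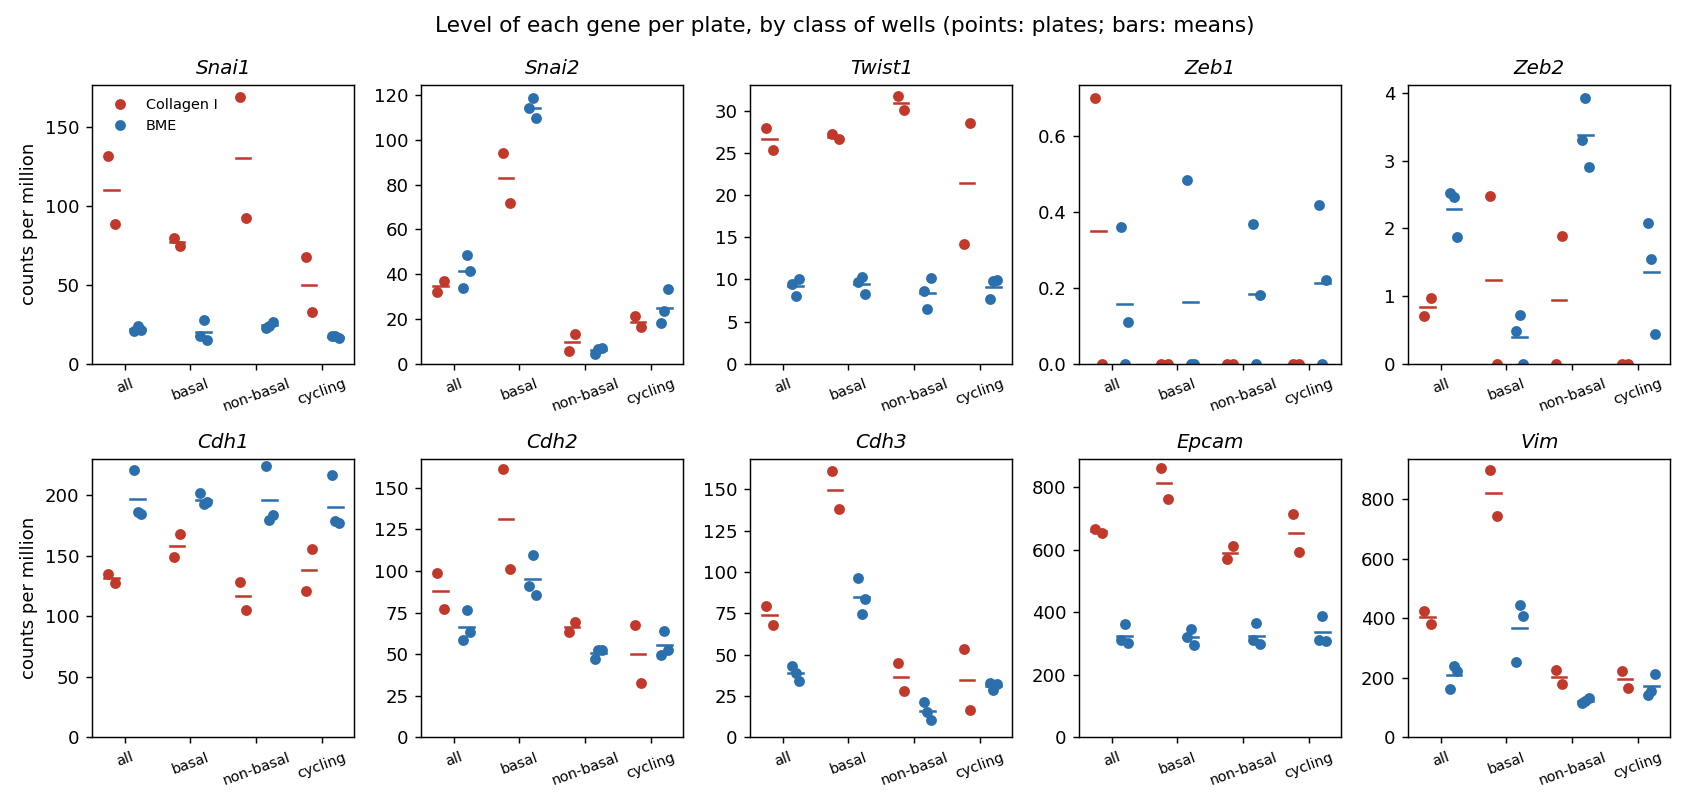
Level of each gene in CPM (y axis, linear, own scale per gene) in all, basal, non-basal and cycling wells (x axis), with the 2 Collagen I plates to the left of the 3 BME plates in each class; points are plates and bars are means. Snai1, Twist1 and Epcam are higher on both Collagen I plates in every class, Snai2 and Cdh3 are mostly a matter of the basal class, and Zeb1 and Zeb2 stay below 4 CPM.

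Fibroblast markers and early response genes also differed between the matrices. The summed level of the 9 fibroblast markers was 109.8 and 398 CPM in Collagen I and 29.9 to 36.4 CPM in BME. On Collagen I replicate 3, Col1a2 had 138 counts and Col3a1 42, against 1 of each on replicate 1. Wells with at least 3 counts of Col1a1, Col1a2, Col3a1 and Dcn (10 and 31 in Collagen I; 3, 4 and 5 in BME) held 2.46% and 11.7% of the Vim counts in Collagen I and 0.221%, 1.90% and 1.29% in BME. They held 7.16% and 10.0% of all counts in Collagen I. Without these wells every call over all wells stood, and the log2 fold change of Vim was 0.98 (adjusted p = 6.05e-04). The 5 endothelial, 3 pericyte and 7 immune markers (of which 5 have a row) summed to at most 5.59, 1.95 and 7.69 CPM on any plate. The early response genes Fos, Fosb, Jun, Junb, Egr1, Ier2, Atf3 and Dusp1, a list added after values were seen, summed to 1711 and 2607 CPM in Collagen I and to 454, 642 and 606 CPM in BME, and all 8 were called higher. Their part in the levels of Snai1 and Twist1 was not tested.

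The next question was which of these genes belonged to the basal class of wells within a plate. Of the 8 genes tested, 4 were higher in basal than in non-basal wells (Snai2, Cdh3, Vim and Cdh2), 1 was lower (Snai1), and Cdh1, Epcam and Twist1 did not pass the test. With plate as a block, 29.2% of the 10001 genes tested were called. The median log2 fold change of the 8 genes was 0.51, against -0.03 for all genes.

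Snai2 was the gene most restricted to basal wells. It was at 94.2 and 71.9 CPM in basal wells and at 5.89 and 13.2 CPM in non-basal wells of the Collagen I plates. On the BME plates it was at 114, 119 and 110 CPM in basal and at 4.22, 6.54 and 7.09 CPM in non-basal wells. Every plate thus showed at least 5.46 times more Snai2 in basal wells, and the log2 fold change was 4.10 (SE 0.18, adjusted p = 1.26e-09). Basal wells held 82.6% and 71.1% of all Snai2 counts in Collagen I and 83.7%, 84.7% and 74.5% in BME.

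Cdh3 and Vim followed the same order of classes with a smaller difference. Cdh3 was at 161 and 138 CPM in basal wells and at 44.8 and 28.2 CPM in non-basal wells in Collagen I, and at 96.3, 74.5 and 83.6 CPM in basal and 21.5, 15.7 and 10.7 CPM in non-basal wells in BME. Its log2 fold change was 2.30 (SE 0.14, adjusted p = 3.93e-08). For Vim the basal wells held 898 and 743 CPM and the non-basal wells 228 and 179 CPM in Collagen I, and 254, 445 and 409 CPM against 117, 123 and 132 CPM in BME. The basal level exceeded the non-basal level on all 5 plates, by 2.17 to 4.16 times, and the log2 fold change was 1.68 (SE 0.13, adjusted p = 3.08e-07). Cdh2 was 1.45 to 2.53 times higher in basal wells, with a log2 fold change of 0.89 (SE 0.11, adjusted p = 3.61e-05) that was not called after thinning (0.45, adjusted p = 0.265). In every thinned test of a class, here and below, the wells were classed again from their thinned counts. Depth and class membership thus changed together.

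Snai1 ran the other way. It was at 79.3 and 74.5 CPM in basal and at 169 and 92.2 CPM in non-basal wells in Collagen I, and at 17.4, 27.5 and 14.9 CPM in basal and 22.7, 24.0 and 26.3 CPM in non-basal wells in BME. It was lower in basal wells on 4 of 5 plates, BME replicate 2 being the exception, with a log2 fold change of -0.48 (SE 0.17, adjusted p = 0.0436). This call was weak: 8 of 14 alternatives lost it, with adjusted p between 0.00306 and 0.190 over all of them. Among those that lost it were leaving out Collagen I replicate 1 (-0.32, adjusted p = 0.181), Collagen I replicate 3 (-0.51, adjusted p = 0.0513), BME replicate 1 (-0.51, adjusted p = 0.103) or BME replicate 3 (-0.39, adjusted p = 0.190). Snai1 and Snai2, both of the Snail family, thus had opposite signs between the classes.

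For Cdh1, Epcam and Twist1 no difference between the classes passed the test. Cdh1 was at 0.08 (SE 0.11, adjusted p = 0.623), Epcam at 0.13 (SE 0.11, adjusted p = 0.402) and Twist1 at 0.03 (SE 0.21, adjusted p = 0.940), and differences of about the size of these errors would not have been seen.

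**Figure D2:**
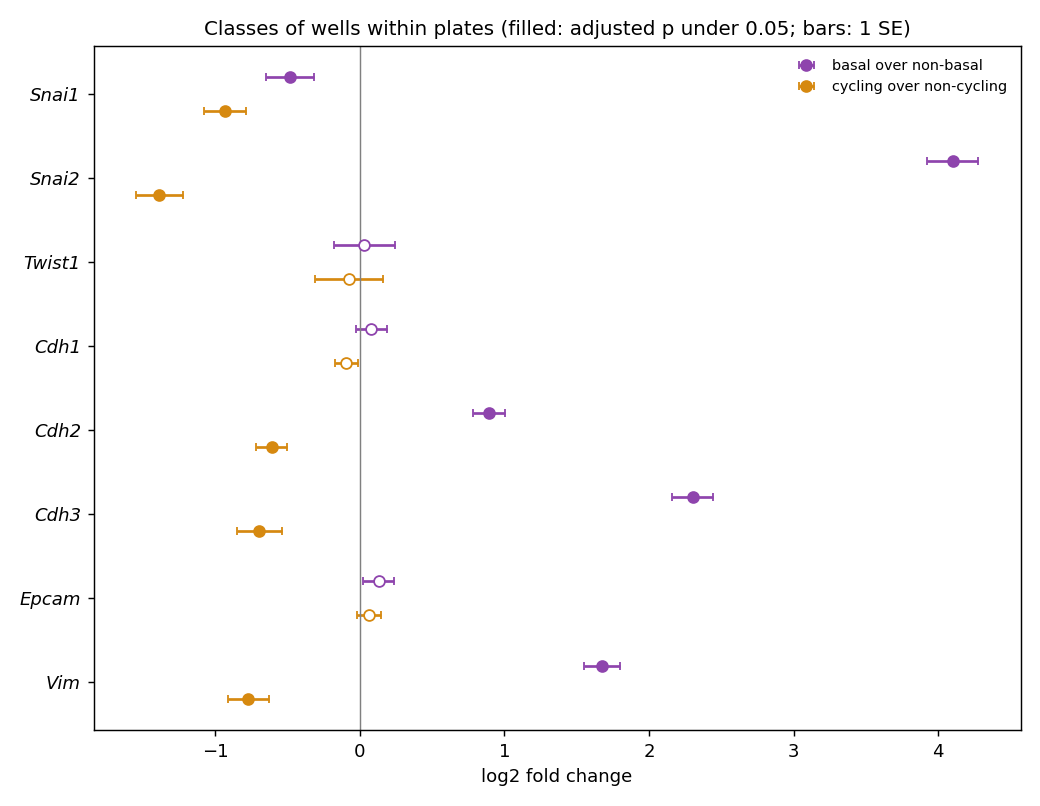
Log2 fold change of each gene (x axis) between classes of wells with plate as a block, basal over non-basal and cycling over non-cycling; bars are 1 SE and filled points have an adjusted p under 0.05. Snai2 stands at 4.10 and Cdh3 at 2.30 for basal over non-basal, and Snai1, Snai2, Cdh2, Cdh3 and Vim lie below 0 for cycling over non-cycling.

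Since the share of basal wells differed between plates (35.1% and 45.2% of kept wells in Collagen I; 30.1%, 35.8% and 30.0% in BME), the matrices were compared within each class. The part of depth in these shares was not tested. In basal wells 5 of 8 genes tested rose in Collagen I, where 19.1% of 10296 genes were called. In non-basal wells 5 of 9 rose and 1 fell, where 28.0% of 11076 genes were called. Snai1, Twist1, Cdh3, Epcam and Vim rose in both classes, and Cdh1 fell in the non-basal wells.

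Epcam in basal wells did not overlap between the matrices, at 863 and 762 CPM in Collagen I and 321, 347 and 296 CPM in BME. The lower Collagen I plate had more than 2 times the level of the highest BME plate, and the log2 fold change was 1.38 (SE 0.17, adjusted p = 3.23e-06). The sum of the luminal markers Krt8, Krt18, Krt19, Cd14, Elf5 and Cited1 was also higher there. In basal wells they summed to 2883 and 2717 CPM in Collagen I and to 939, 803 and 917 CPM in BME. Elf5 and Cited1 were at 0 in Collagen I, with no marker at 0 in BME. Their highest basal levels on any plate were 1.94 and 4.36 CPM, and the basal wells of Collagen I held 779155 counts in all. No direction was read from values this near the floor. Over the basal wells of all plates Krt8 ran from 327 to 1833 CPM and Krt18 from 75.1 to 764 CPM. Cd14 ran from 269 to 516 CPM and Krt19 from 4.84 to 24.0 CPM. In non-basal wells the luminal markers summed to 2612 and 2561 CPM in Collagen I and to 2575, 2182 and 2187 CPM in BME. No doublet caller was run, and the part of luminal RNA or of wells with more than 1 cell in the basal level of Epcam was not tested. In non-basal wells Epcam was at 570 and 612 CPM in Collagen I and at 311, 366 and 300.5 CPM in BME, a log2 fold change of 0.88 (SE 0.15, adjusted p = 4.10e-04). Vim rose by 1.19 (SE 0.20, adjusted p = 1.98e-04) in basal and by 0.74 (SE 0.15, adjusted p = 0.00211) in non-basal wells, and the call in non-basal wells was lost without Collagen I replicate 1 (0.56, adjusted p = 0.0970).

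Snai1 rose by 1.98 (SE 0.30, adjusted p = 5.55e-05) in basal wells and by 2.47 (SE 0.22, adjusted p = 5.15e-07) in non-basal wells. In neither class did a Collagen I plate come near the BME plates. Twist1 rose by 1.55 (SE 0.43, adjusted p = 0.0132) in basal and by 1.88 (SE 0.32, adjusted p = 4.29e-04) in non-basal wells. Its basal levels, 27.3 and 26.6 CPM in Collagen I and 9.68, 10.3 and 8.24 CPM in BME, rested on 11 and 10 counts against 20, 29 and 21 counts, and the basal call was lost without Collagen I replicate 1 (1.54, adjusted p = 0.105), without Collagen I replicate 3 (1.52, adjusted p = 0.108) and without the deepest 5% of wells (1.25, adjusted p = 0.0692).

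Cdh3 rose by 0.86 (SE 0.21, adjusted p = 0.00448) in basal and by 1.25 (SE 0.33, adjusted p = 0.0106) in non-basal wells. Both calls rested on Collagen I replicate 1, without which they were at 0.76 (adjusted p = 0.101) and 0.86 (adjusted p = 0.341), and both were lost after thinning (0.81, adjusted p = 0.0779, and 0.36, adjusted p = 0.674). Cdh1 fell by 0.71 (SE 0.18, adjusted p = 0.00680) in non-basal wells, at 129 and 105 CPM in Collagen I and 224, 179 and 183 CPM in BME, and this call was lost without Collagen I replicate 3 (-0.63, adjusted p = 0.0846) and after thinning (-0.50, adjusted p = 0.129). In basal wells Cdh1 was at 149 and 168 CPM in Collagen I and at 202, 193 and 194 CPM in BME. The plates did not overlap there either, yet the log2 fold change of -0.27 (SE 0.19) did not pass the test (adjusted p = 0.352).

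Snai2 was not called in any class. In basal wells, where most of it was found, its log2 fold change was -0.42 (SE 0.22, adjusted p = 0.192), both Collagen I plates lying below the BME plates. In non-basal wells it was 0.59 (SE 0.54, adjusted p = 0.441), from 5 and 7 counts in Collagen I. Cdh2 was at 161 and 101 CPM in basal wells in Collagen I and at 91.0, 110 and 85.5 CPM in BME, with overlap and a log2 fold change of 0.50 (SE 0.22, adjusted p = 0.111).

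**Figure D3:**
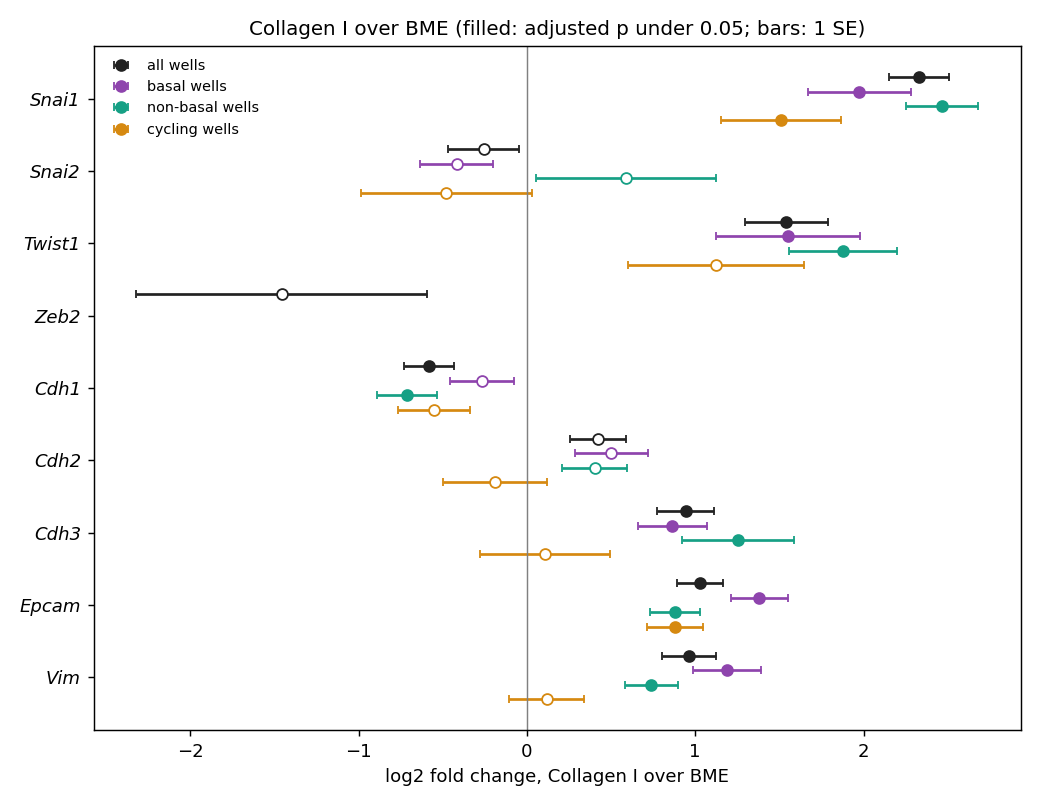
Log2 fold change of each gene, Collagen I over BME (x axis), in all, basal, non-basal and cycling wells; bars are 1 SE and filled points have an adjusted p under 0.05. Snai1 lies at 2.33 over all wells and is called in every class, Cdh1 lies below 0 in every class, and Zeb1 (too few counts) and the non-basal value of Zeb2 (SE above 1) are not drawn.

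A difference between the classes in their response to the matrix needs its own test. By edgeR's quasi-likelihood test 0 of the 8 genes tested passed it, 2 had an unadjusted p under 0.05 (Epcam and Vim), and DESeq2 called 1 (Epcam). Of 10862 genes, 4.26% passed. The nearest was Epcam, whose log2 fold change was larger in basal than in non-basal wells by 0.44 (SE 0.13, adjusted p = 0.0501), a value at the threshold that passed under 10 of 15 alternatives (adjusted p between 0.00701 and 0.838). The ratio of basal over non-basal Epcam was 1.51 and 1.24 on the Collagen I plates and 1.03, 0.946 and 0.985 on the BME plates. For Vim the difference was 0.42 (SE 0.17, adjusted p = 0.208), and it was called without BME replicate 2 (0.66, adjusted p = 0.0323) or replicate 3 (0.55, adjusted p = 0.0320). For Snai1 it was -0.52 (SE 0.31, adjusted p = 0.452), for Cdh3 -0.46 (SE 0.31, adjusted p = 0.523), and for Cdh1 0.36 (SE 0.20, adjusted p = 0.406).

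Cycling wells were set against non-cycling wells (under 5 counts of the mitotic genes per 10000) of the same plates. Of the 8 genes tested, 5 were lower in cycling wells (Snai1, Snai2, Cdh2, Cdh3 and Vim), and Twist1, Cdh1 and Epcam did not pass the test. Here 42.5% of 10425 genes were called. Basal wells made up 24.4% and 25.9% of the cycling wells and 37.8% and 48.3% of the non-cycling wells in Collagen I, and 21.4%, 23.1% and 31.5% of the cycling and 39.9%, 48.9% and 29.7% of the non-cycling wells in BME. Basal wells were thus fewer among cycling wells on 4 of 5 plates, and each gene was also compared within the keratin classes, in alternatives that were chosen after seeing the data.

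Snai1 was at 67.4 and 32.7 CPM in cycling and at 148 and 109 CPM in non-cycling wells in Collagen I. In BME it was at 17.5, 17.2 and 16.03 CPM in cycling and at 26.0, 35.6 and 29.3 CPM in non-cycling wells. It was lower in the cycling wells of all 5 plates, with a log2 fold change of -0.93 (SE 0.14, adjusted p = 3.94e-05). The difference was as large within one keratin class, -1.15 in non-basal wells alone (adjusted p = 8.02e-05) and -1.02 in basal wells alone (adjusted p = 0.0103). The basal value rested on few counts. The cycling basal wells held 2 and 0 Snai1 counts in Collagen I (10 and 14 wells) and 7, 18 and 12 in BME.

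Vim was at 224 and 168 CPM in cycling and at 483 and 459 CPM in non-cycling wells in Collagen I, and at 144, 156 and 215 CPM in cycling and 207, 366 and 232 CPM in non-cycling wells in BME. Its log2 fold change was -0.77 (SE 0.14, adjusted p = 2.51e-04). Within non-basal wells alone it was -0.87 (adjusted p = 4.68e-04), and within basal wells alone it was -0.31 and did not pass the test (adjusted p = 0.0878). In the cycling basal wells of Collagen I (10 and 14 wells), Vim was at 950 and 742 CPM, beside 881 and 754 CPM in the non-cycling basal wells of those plates. The call over all classes was lost after thinning, with the wells classed again from the thinned counts (-0.21, adjusted p = 0.367).

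Snai2 had a log2 fold change of -1.39 (SE 0.16, adjusted p = 1.93e-06) and kept the call within basal wells (-0.69, adjusted p = 3.50e-04). Cdh3 (-0.70, SE 0.16, adjusted p = 0.00144) was called in neither class alone, at -0.09 (adjusted p = 0.810) in non-basal and -0.34 (adjusted p = 0.160) in basal wells, and Cdh2 (-0.61, SE 0.11, adjusted p = 1.51e-04) was called within non-basal wells only (-0.62, adjusted p = 9.51e-04, against -0.31, adjusted p = 0.210, in basal wells). The calls of Cdh2 and Cdh3 were lost after thinning (adjusted p = 0.332 and 0.365). Epcam was at 714 and 593 CPM in cycling and at 671 and 700 CPM in non-cycling wells in Collagen I, and its log2 fold change of 0.06 (SE 0.08, adjusted p = 0.549) was the smallest in size of the 8 genes.

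Between the matrices, 2 of 8 genes tested in cycling wells rose in Collagen I (Snai1 and Epcam), where 7.68% of 10846 genes were called. Epcam rose by 0.88 (SE 0.17, adjusted p = 0.00362) and Snai1 by 1.51 (SE 0.36, adjusted p = 0.0158), Snai1 from 19 and 8 counts in Collagen I. Both calls were lost without Collagen I replicate 1, Epcam at 0.75 (adjusted p = 0.108) and Snai1 at 0.88 (adjusted p = 0.434). Vim was at 224 and 168 CPM in Collagen I and at 144, 156 and 215 CPM in BME, with overlap and a log2 fold change of 0.12 (SE 0.23, adjusted p = 0.815). Whether the response of Vim to the matrix differed between cycling and non-cycling wells was not tested.

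The last question was whether Vim and Epcam were found in the same wells. Because the plates differed in depth, each well was thinned to 2000 counts, which left 218 and 201 wells in Collagen I and 286, 255 and 259 wells in BME, 137 wells in Collagen I and 144 in BME being shallower. A count of both genes was found in 33.5% and 32.8% of the Collagen I wells and in 9.44%, 18.04% and 15.1% of the BME wells. The groups did not overlap. The 95% Wilson intervals, which cover counting error only, were 27.6% to 40.0% and 26.7% to 39.6% for the Collagen I plates, and the highest upper bound of a BME plate was 23.2%. The means were 33.2 ± 0.460% (SD, n = 2) in Collagen I and 14.2 ± 4.37% (SD, n = 3) in BME, a difference of 19.0 percentage points with a two-sided exact permutation p of 0.1, the smallest that 2 plates against 3 can give.

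Unthinned, the order was reversed. A count of both genes was then found in 54.2% and 37.4% of the Collagen I wells and in 55.2%, 61.3% and 65.8% of the BME wells, a difference of -15.0 percentage points, with the depth per well higher in BME. With at least 2 counts of each gene required at equal depth, the shares were 12.1% in Collagen I and 1.92% in BME (means over plates).

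Each gene alone was also found in a larger share of the Collagen I wells. At 2000 counts Vim was found in 42.7% and 44.3% of the Collagen I wells and in 22.0%, 32.2% and 27.0% of the BME wells, and Epcam in 70.6% and 63.7% of the Collagen I wells and in 45.5%, 52.2% and 45.6% of the BME wells. Wells with Vim and no Epcam were no more common in Collagen I: 9.17% and 11.4% there and 12.6%, 14.1% and 11.97% in BME. Wells with neither gene made up 20.2% and 24.9% in Collagen I and 42.0%, 33.7% and 42.5% in BME. The share of wells with both, divided by the share expected from the single shares, was 1.11 and 1.16 in Collagen I and 0.943, 1.08 and 1.22 in BME, so the excess over independence did not separate the matrices over all wells (exact permutation p = 0.7). In non-cycling wells it was 1.07 and 1.20 in Collagen I and 0.872, 0.970 and 1.02 in BME, without overlap (exact permutation p = 0.1, the smallest that 2 against 3 plates can give).

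In basal wells the pair was found in 53.6% and 56.8% of wells in Collagen I and in 15.3%, 27.2% and 26.2% of wells in BME. Even the lower Collagen I plate was at about 2 times the highest BME plate. The summed luminal markers of the basal wells were also higher in Collagen I, at 2883 and 2717 CPM against 803 to 939 CPM in BME. Of these markers Elf5 and Cited1 were at 0 in Collagen I and near the floor in BME, at no more than 1.94 and 4.36 CPM. The part of the sum in this share was not tested. In non-basal wells the pair was found in 21.8% and 15.5% in Collagen I and in 7.14%, 12% and 8.97% in BME, without overlap (exact permutation p = 0.1 in either class). In cycling wells the shares were 30.3% and 14.6% in Collagen I and 6.25%, 19.4% and 20.4% in BME, which overlapped (exact permutation p = 0.6). Without the wells that carried fibroblast counts the difference over all wells was again 19.0 percentage points.

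**Figure D4:**
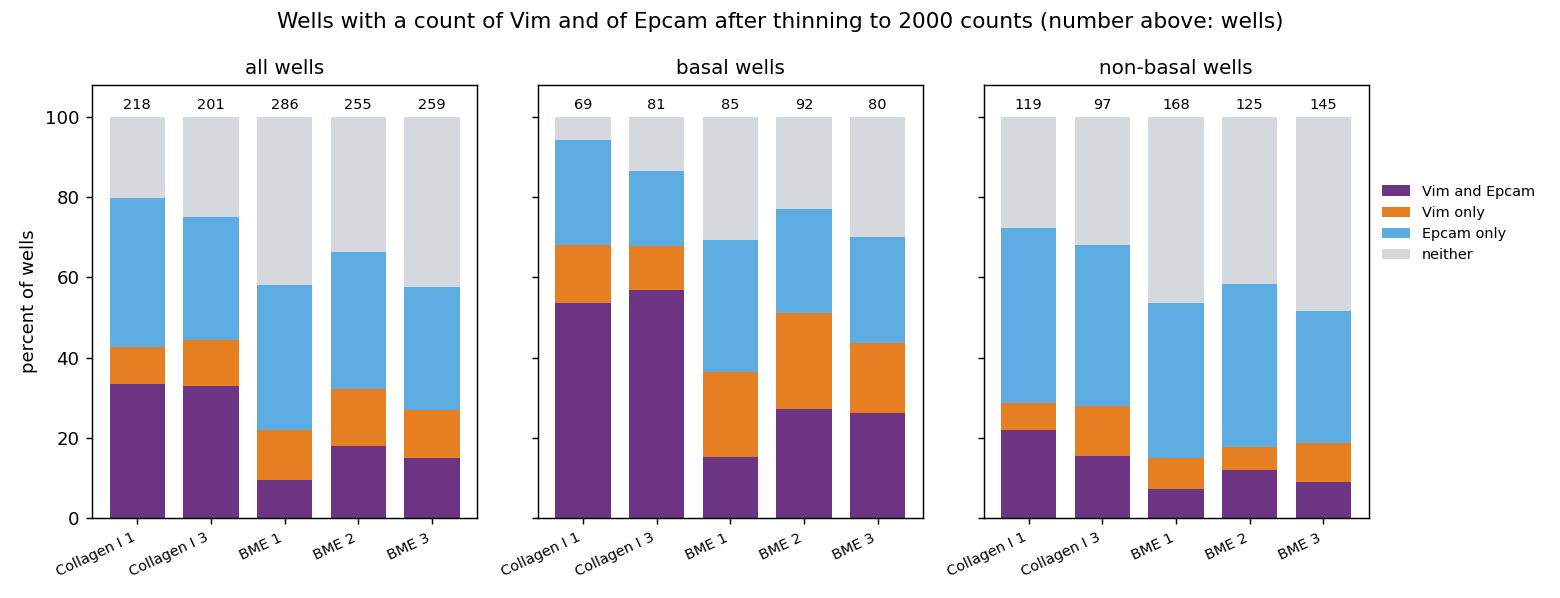
Percent of wells (y axis) with counts of Vim and Epcam, Vim only, Epcam only or neither, after thinning each well to 2000 counts, for the Collagen I plates and then the BME plates, in all, basal and non-basal wells; the number of wells stands above each bar. The share with both is 53.6% and 56.8% in basal wells of Collagen I and at most 27.2% in basal wells of BME.

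Within a plate, Epcam was read against the Vim count of the well. In Collagen I, wells with 0, 1 and 2 or more Vim counts had an Epcam count in 64.8%, 69.6% and 87.2% of cases on replicate 1 and in 55.4%, 68.8% and 80.5% on replicate 3. Of the wells with 2 or more Vim counts, 66.0% and 75.6% were basal in Collagen I, and 55.0%, 66.7% and 60.7% in BME. In BME the same 3 classes gave 46.2%, 37.2% and 55.0% on replicate 1, 50.3%, 50% and 66.7% on replicate 2, and 41.8%, 57.1% and 53.6% on replicate 3. Epcam was therefore found in most wells with Vim in Collagen I, and the share was highest at 2 or more Vim counts on 4 of 5 plates.

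**Figure D5:**
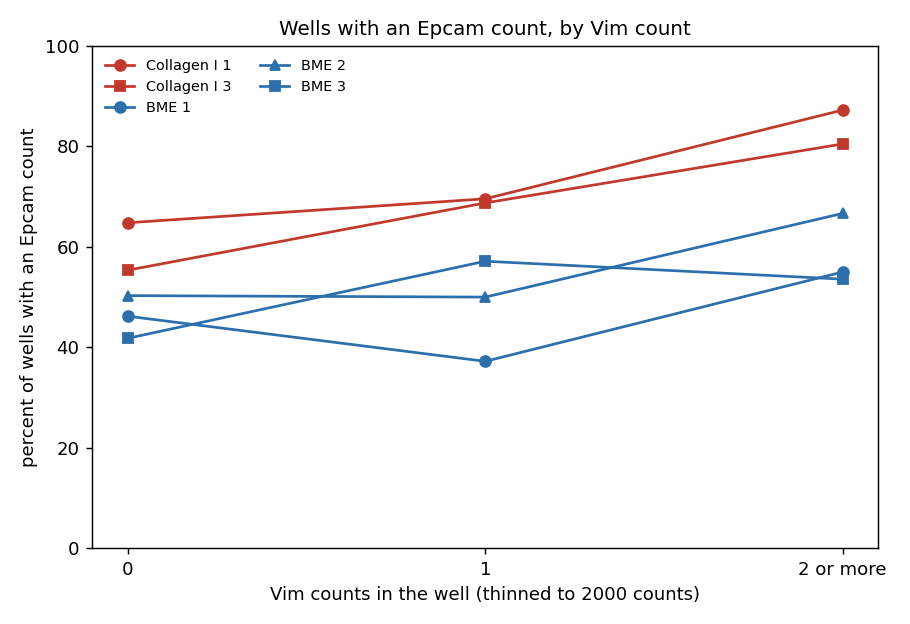
Percent of wells with an Epcam count (y axis) by the Vim count of the well (x axis), after thinning to 2000 counts, 1 line per plate. Both Collagen I lines climb to 87.2% and 80.5% at 2 or more Vim counts, and the BME lines end between 53.6% and 66.7%.

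The Snail factors were read against Vim in the same way. At equal depth Snai1 was found in 17.2% and 11.2% of the wells with Vim and in 24.0% and 17.9% of the wells without Vim in Collagen I, and in 7.94%, 7.32% and 5.71% of the wells with Vim and 3.59%, 3.47% and 1.59% of those without in BME. Snai1 was thus more often found outside the Vim wells in Collagen I and inside them in BME, from 4 to 16 wells with both per plate and with no test. Among non-basal wells the shares kept this order on all 5 plates. Among basal wells they did not on Collagen I replicate 1 (14.9% with Vim and 9.09% without) and BME replicate 1 (3.23% with Vim and 5.56% without). The mean Snai1 count per well on Collagen I replicate 1 was higher with Vim than without in both classes, at 0.170 and 0.0909 in basal and at 0.529 and 0.376 in non-basal wells. In the non-basal wells of that plate the order thus depended on the measure. Over all its wells the mean was 0.290 with Vim and 0.312 without. Snai2 was found in 11.8% and 10.1% of the wells with Vim and in 3.20% and 5.36% of those without in Collagen I, and in 11.1%, 13.4% and 8.57% of the wells with Vim and 8.07%, 7.51% and 7.94% of those without in BME, so it was more often found in Vim wells on all 5 plates. Among basal wells alone this order held on both Collagen I plates (19.1% and 14.5% with Vim, 9.09% and 7.69% without) and on none of the BME plates (22.6%, 21.3% and 17.1% with Vim, 24.1%, 24.4% and 24.4% without). Snai1 and Snai2 shared 5 and 0 wells in Collagen I and 2, 0 and 1 wells in BME. Wells with Snai1 also held Epcam in 78.3% and 66.7% of cases in Collagen I and in 53.8%, 66.7% and 57.1% in BME.

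E-cadherin and P-cadherin were found side by side in few wells at this depth, 3.21% and 3.48% in Collagen I and 2.45%, 1.57% and 2.70% in BME. Cdh1 was found in 25.2% and 25.9% of wells in Collagen I and in 35.0%, 31.4% and 34.4% in BME. Among wells with Vim it was found in 22.6% and 30.3% in Collagen I and in 34.9%, 34.1% and 35.7% in BME, close to the shares among wells without Vim (27.2% and 22.3% in Collagen I; 35.0%, 30.1% and 33.9% in BME). Cdh3, in contrast, was found in 22.6% and 16.9% of the Vim wells and in 8.80% and 5.36% of the others in Collagen I, and in 11.1%, 9.76% and 17.1% of the Vim wells and 7.62%, 7.51% and 5.82% of the others in BME. All 5 plates showed this order for Cdh3 over all wells. Among basal wells 4 of 5 plates showed it, BME replicate 2 being the exception (10.6% with Vim and 13.3% without). Among non-basal wells the order was the opposite on all 5 plates, with Cdh3 in at most 5.88% of the Vim wells and in 2.54% to 9.41% of the others.

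Other genes of the same processes were read from 4 lists. Of 18 adherens junction partners, the catenins, nectins and further cadherins that work with Cdh1, 9 were tested over all wells, and 4 were higher in Collagen I, where 31.8% of all genes were called, with a median log2 fold change of 0.42 against -0.03 for all genes. The largest were Jup (plakoglobin, 1.19), Vcl (vinculin, 0.93) and Pvrl2 (nectin 2, 0.90). In basal against non-basal wells 4 were higher, led by Pvrl1 (nectin 1) at 1.57 and Vcl at 1.09, where 29.2% of all genes were called. In cycling against non-cycling wells 4 of 9 were lower, near the 42.5% of all genes called there.

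Of 16 epithelial regulators, factors and membrane proteases that maintain epithelial identity, 2 were higher and 4 lower in Collagen I over all wells, with a median of -0.34. These 6 of 16 are near the 31.8% of all genes called. Elf5, a factor of luminal progenitors, had 0 counts in Collagen I and 127 counts in BME, which makes it at least 4.08-fold lower in Collagen I against a floor of 3 counts over the 2 plates. With Elf5 at this bound the median was also -0.34. Grhl1, a grainyhead factor, was at -1.57 from 6 counts in Collagen I, and Ehf, an epithelial ETS factor, at -1.19. The protease Prss8 and the ETS factor Elf3 were higher (0.81 and 0.80). In basal against non-basal wells 5 of 12 were lower and 1 higher (29.2% of all genes were called), with Ehf at -1.06, Grhl3 at 0.88 and St14 at -0.64. The Ehf value pools both matrices, although its change in Collagen I was -0.05 in basal and -1.58 in non-basal wells.

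Of 13 other EMT factors, 10 were tested, and 4 were higher and 2 lower in Collagen I over all wells (31.8% of all genes were called), with a median of 0.30. Those that fell were inhibitors of helix-loop-helix factors: Id3 was at -2.68 (SE 0.25, adjusted p = 4.29e-06) and Id1 at -0.95 (SE 0.19, adjusted p = 0.00184). The related Id2 was at -0.19 (SE 0.15) and did not pass the test (adjusted p = 0.357). Sox4 was at 2.12 (SE 0.27, adjusted p = 5.45e-05) and Sox9, a factor of mammary progenitors, at 1.53 (SE 0.15, adjusted p = 5.45e-06).

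Of 15 mesenchymal effectors, 12 were tested and 8 were higher and 1 lower in Collagen I (31.8% of all genes were called), with a median of 1.09. The largest were Acta2 (smooth muscle actin) at 4.95, from 19 counts in Collagen I and 6 in BME, Tgfbi, a secreted matrix protein, at 3.42 and Fn1 (fibronectin) at 2.79. S100a4 was the one that fell, by 1.72. In basal against non-basal wells 9 of 11 were higher and Fn1 was lower (-0.89), where 29.2% of all genes were called, and in cycling against non-cycling wells 9 of 11 were lower, where 42.5% were called. The Fn1 value pools both matrices, although Fn1 rose in Collagen I by 4.10 in basal and by 2.39 in non-basal wells. It does not describe either matrix alone. Prss8, Elf3, Id1, Id2 and S100a4 were named after their values were seen. The members of the 4 lists that passed the test of a different response in basal and non-basal wells were Ehf, Sparc, Fn1, Cd44, Lgals1 and Sox9.

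Genes most like Vim, Epcam, Cdh1 and Cdh3 were sought by Pearson correlation of log2 CPM over the 10 sums (basal and non-basal wells of 5 plates) among 3336 genes of at least 50 CPM. These sums share plates, and they separate by matrix, depth and class, so the values are a description. The nearest to Vim were Tpm1 (0.983), Lmna (0.975), Ptrf (0.973), Cast (0.973) and Dstn (0.972), of which Tpm1 is a tropomyosin, Lmna encodes lamin A and Dstn destrin. Nearest to Epcam stood Vasp (0.981), Dap (0.980), Rab5b (0.979), Krt8 (0.978) and 2510039O18Rik (0.977). For Cdh3 they were Id4 (0.983), Runx2 (0.981), Plec (0.980), Itgb4 (0.978) and Pkp1 (0.977), among them the basal mammary factor Id4 and the hemidesmosome components Plec and Itgb4. Cdh1 had the loosest set, Slc39a4 (0.943), Rragc (0.941), Cyb5 (0.936), Cryzl1 (0.932) and Anapc16 (0.928).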

How the data were processed

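The authors deposited 1 table per 384-well plate of expected counts, unique molecule counts per gene and well corrected for barcode saturation (SORT-seq, a CEL-Seq2 method on sorted cells), so that 86.0% of the values above 0 lay within 0.005 of a whole number. Reads were mapped to mm10 with BWA per the submitters' processing notes, and the version is not given in the sources used here.

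Wells with over 500 counts, under 8000 genes and under 10% mitochondrial counts were kept, with spike-ins left out, and no doublet caller was run. Total counts per plate were 1631981 and 1091410 in Collagen I and 9077590, 9335872 and 10911740 in BME, and low shares are correspondingly less certain in Collagen I. Counts were summed per plate and class of wells, rounded to whole numbers, filtered with filterByExpr, scaled by TMM and tested with edgeR 4.0.16 (quasi-likelihood, R 4.3.3), with Benjamini-Hochberg adjustment over all genes and a threshold of 0.05. CPM are counts divided by the summed counts of that class. Comparisons of classes had plate as a block. The test of a different response used the interaction term. Scripts were tested on simulated data. Shares of wells were taken after thinning each well to 2000 counts (seed 1) and compared by an exact two-sided permutation test over plates (numpy 2.4.6). The exact interval of the Zeb2 ratio was taken with scipy 1.17.1.

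Alternatives were DESeq2 1.42.0, other size factors, no filter, undone saturation correction, deeper, thinned or fewer wells, stricter classes, a replicate block and each plate left out. In the thinned alternative the classes were drawn again from the thinned counts, and shares of wells kept the classes drawn at full depth. The text names the 10 genes in every comparison, up to 3 called genes of each list with the largest change, and the 5 genes most like 4 members. The members and lists were chosen with earlier results of these data known, and the early response list after values were seen. One gene of a list is not reported here and was left out of its list's counts.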

Additional observations from a re-analysis of the deposited data

Results flagged for a closer look

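In 6 genes of the 4 lists the Collagen I response differed between basal and non-basal wells by the test of that difference (edgeR, adjusted over all genes, where 4.26% of genes passed). Of the 8 early response genes, which are not in these lists, 2 also passed, both with a difference below 0. Sparc, a matrix protein, was at 0.33 in basal and 2.33 in non-basal wells on the log2 scale, a difference of -2.07. Fn1, fibronectin, was at 4.10 and 2.39, a difference of 1.68. Ehf was at -0.05 and -1.58, a difference of 1.49, Cd44, the hyaluronan receptor, at 0.38 and -0.37, a difference of 0.69, Lgals1, a galectin, at 1.27 and 0.66, a difference of 0.55, and Sox9 at 1.83 and 1.33, a difference of 0.45.

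The row for eGFP, which no comparison uses, held 83 counts over the 5 plates, above the 3 counts that a count of 0 allows.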

How the results depend on the processing

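At the level of single genes no call reversed its sign under any alternative. Thinning to 2000 counts per well lowered the number of the 10 genes called to 3 (5 unthinned) in basal, 3 (6) in non-basal and 1 (2) in cycling wells. Between basal and non-basal wells it fell to 3 (5), and between cycling and non-cycling wells to 0 (5). Without thinning, cycling against non-cycling wells gave 3 calls in non-basal and 2 in basal wells alone. Part of the drop came from genes that had too few counts to be tested after thinning. These were Twist1 in basal and in non-basal wells, and Snai1 in cycling wells and between basal and non-basal wells. Between cycling and non-cycling wells they were Snai1 and Snai2, and the genes tested that lost a call were Cdh2, Cdh3 and Vim. In the test of a different response, 0 genes were called as reported and 1 under each of DESeq2, RLE size factors, no filter, undone saturation correction, wells over 2000 counts, fibroblast wells out, the deepest 5% of wells out and stricter classes. With each plate left out in turn the number called was 3 to 5 in basal wells, 0 to 2 in cycling wells and 0 to 2 for the different response. Fits with 1 Collagen I plate assume that it varies like the BME plates. The difference in wells with Vim and Epcam was -15.0 percentage points unthinned and 16.6 to 20.9 with each plate left out.

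Over all genes, thinning lowered the calls to 1750, 784, 1116 and 291 (all, basal, non-basal and cycling wells, Collagen I against BME; 3765, 1967, 3106 and 833 unthinned), to 340 (2919) between basal and non-basal wells, 90 (463) for the different response and 680 (4434) between cycling and non-cycling wells, with fewer genes tested. Without Collagen I replicate 1 the counts were 1826, 1012, 1339 and 216, and without Collagen I replicate 3 they were 2030, 818, 1754 and 202. For the different response DESeq2 called 249 genes. In cycling wells 69.5% of the calls were higher by DESeq2 and 58.7% by edgeR.

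Same-numbered plates (2 pairs) did not deviate together (r = -0.0051 and 0.0092 over 11839 genes), so the numbers are not taken as pairs. The deviations of the 2 Collagen I plates from their mean mirror each other, so these are not 2 separate checks. With the replicate number as a block 3766 genes were called over all wells, and Cdh2 was the one member that changed its call (0.52, adjusted p = 0.0307).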
